A study of Mus musculus with 6 samples.

Results

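The nuclear-encoded genes of the respiratory chain were examined in Lgr5-GFP+ stem cells of the mouse small intestine with and without the Polycomb proteins Ring1a and Ring1b. Members were chosen by symbol: names beginning with Nduf, Uqcr, Cox4 to Cox8 or Atp5, and Sdha, Sdhb, Sdhc and Sdhd, without the Ndufaf assembly factors, with the entry of the highest mean kept for each symbol. This gave 82 of the 16819 genes in the table of the WT and RingKO cells and 78 of the 15915 genes in the table of the Bcat and Bcat_RingKO cells. By complex the 82 comprised 37 names for complex I, 4 for complex II, 8 for complex III, 16 for complex IV and 17 for complex V. Cox7a2l, a factor that joins complexes into supercomplexes, and Atp5s and Atp5sl match the name rule without being subunits.

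The respiratory chain sits in the inner mitochondrial membrane. Complex I takes electrons from NADH and complex II takes them from succinate, both pass them to ubiquinone, and complex III hands them on through cytochrome c to complex IV, which reduces oxygen. Complexes I, III and IV pump protons as they do so, and complex V, the ATP synthase, lets the protons flow back to make ATP. Complex II is also an enzyme of the citric acid cycle, and all of its subunits are encoded in the nucleus, whereas the other complexes also hold subunits from the mitochondrial genome, which are not among these genes. Intestinal crypts hold stem cells beside Paneth cells, the granule-filled secretory cells of the crypt base, and the stem cells are known for a more oxidative metabolism than the Paneth cells.

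All groups came from C57BL/6 mice that carried a Lgr5Gfp-CreERT2 allele, so that the tamoxifen-activated Cre recombinase was driven from the Lgr5 gene, and all received 3 tamoxifen injections and were killed at day 6. WT cells (2 libraries) carried no further allele. RingKO cells (2 libraries) also carried Ring1a-/- and floxed Ring1b (Ring1bf/f) alleles. Bcat cells (1 library) carried Ctnnb1-ex3, an allele of the beta-catenin gene, and Bcat_RingKO cells (1 library) carried it together with the Ring1a-/- and Ring1bf/f alleles. The Ring1a allele is null in the whole animal, while Ring1b is removed only where Cre was active, so the 2 losses differ in time and in the cells they affect. Ages are not given in the labels, and nothing states that the libraries came from separate animals, so p-values measure the spread between libraries, which may be technical.

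The depth ran from 922153 reads (Bcat) through 2651201 and 2911422 (RingKO) and 4470853 (Bcat_RingKO) to 6294932 and 6753789 (WT). Ring1, the gene for Ring1a, was found with 484 and 363 reads in WT but with 9 and 11 in RingKO. It kept 43 reads in the Bcat_RingKO library against 24 in the shallower Bcat library. The log2 ratio there was -1.51, beside -4.17 in RingKO against WT. The label of the Bcat_RingKO library is thus less firmly checked by this gene than that of RingKO. For Rnf2, the gene for Ring1b, the authors' means were 158 (WT) and 176 (RingKO). It had 78 reads in Bcat and 546 in Bcat_RingKO, a log2 ratio of 0.47. A count summed along the transcript does not check the floxed allele. All 5 stem cell markers (Lgr5, Ascl2, Olfm4, Smoc2, Rgmb) had reads in every library. By the authors' deposited test Ascl2 and Rgmb fell, and all 7 Paneth cell markers rose, after Ring loss. The letters A and B that name the libraries of a genotype are arbitrary.

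The promoters of 3 genes are shown because they carry letters of the nuclear respiratory factor NRF1, a known activator of respiratory chain genes. The genes belong to different complexes: Sdha (complex II), Cox6a1 (complex IV) and Atp5k (complex V). Sdha was the only member called lower in RingKO by the authors' deposited test. Cox6a1 and Atp5k were not called there. Each is the 250 bases before the gene's start in RefSeq (build GRCm38.p6), printed 5′ to 3′ along the gene's strand, which is the minus strand for all 3: Sdha at chr13:74350241-74350490, Cox6a1 at chr5:115348959-115349208 and Atp5k at chr5:108434400-108434649. Capitals mark the NRF1 letters, GCGCA, any base and GCGC, on either strand. At the end of the Cox6a1 sequence they mark CTTCCGG, the reverse complement of the ETS-factor letters CCGGAAG.
Sdha: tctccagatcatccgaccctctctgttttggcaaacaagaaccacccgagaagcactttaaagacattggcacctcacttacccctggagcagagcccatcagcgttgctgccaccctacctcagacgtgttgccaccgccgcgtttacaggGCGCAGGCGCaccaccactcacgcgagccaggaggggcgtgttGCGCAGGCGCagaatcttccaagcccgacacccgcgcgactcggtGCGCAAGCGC
Cox6a1: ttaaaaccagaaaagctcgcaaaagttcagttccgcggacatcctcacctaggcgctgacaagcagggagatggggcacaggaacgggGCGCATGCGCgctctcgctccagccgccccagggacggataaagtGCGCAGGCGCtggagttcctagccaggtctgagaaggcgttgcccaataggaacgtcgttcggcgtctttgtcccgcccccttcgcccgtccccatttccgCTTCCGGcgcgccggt
Atp5k: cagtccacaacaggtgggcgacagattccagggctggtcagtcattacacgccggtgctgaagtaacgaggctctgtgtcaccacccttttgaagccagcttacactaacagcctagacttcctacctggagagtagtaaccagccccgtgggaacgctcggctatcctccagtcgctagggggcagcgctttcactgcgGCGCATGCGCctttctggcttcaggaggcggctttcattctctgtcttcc
The Sdha promoter held 3 matches to the NRF1 letters, the Cox6a1 promoter 2 and the Atp5k promoter 1. The promoter of Ndufb4 (complex I), not printed, held as many as that of Sdha. Ndufb4 was not called in RingKO (DESeq adjusted p = 0.586 in the authors' deposited table). Its deposited log2 value was nevertheless -0.46, and each RingKO library was lower than either WT library for this gene. The same order held for 51.9% of all entries with a mean of at least 50. Whether the NRF1 letters go with the size of a decrease was not tested.

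RefSeq promoters were matched for 69 of the 82 genes, and both strands were searched. The NRF1 letters (GCGCA, any base, GCGC) were in 12 of the 69 (17.4%), against 6.94% of the 12935 genes of the table with a promoter of the same length. The 12 were Sdha and Sdhd of complex II, Cox6a1 of complex IV, Atp5g2, Atp5h and Atp5k of complex V, and Ndufa5, Ndufa8, Ndufa11, Ndufb4, Ndufs5 and Ndufs6 of complex I. The ETS letters CCGGAAG, which GABP binds, were in 15.9% of the members' promoters against 11.6% of all. AAGGTCA, the letters of the estrogen-related receptors, was in 7.25% against 3.16%. AAGATGG, the YY1 letters, was in 0 of 69 against 4.21% in this window, which ends at the start and leaves out the bases after it. The 4 sets of letters do not contain one another, and a match is a description of the sequence, not a bound site.

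Without the beta-catenin allele, few respiratory chain genes passed the test between RingKO and WT cells. By the authors' deposited test, 1 of the 82 members fell, Sdha, against 1.76% of all entries, and 0 rose, against 3.14% of all entries. "Rose" and "fell" stand here for an adjusted p under 0.05 in that table, where the test is DESeq's and the adjustment runs over 18376 entries. At an unadjusted p under 0.05 the same test put 11 members lower and 0 higher, beside 6.72% and 5.56% of all entries. The edgeR quasi-likelihood test on the recovered reads, scaled by trimmed means (TMM), called 0 members lower and 0 higher, against 2.95% and 9.91% of all entries tested. At an unadjusted p under 0.05 it put 4 lower and 0 higher, against 9.65% and 16.5% of all entries. DESeq2 called 1 member lower and 0 higher (1.89% and 6.88% of all entries), with 5 and 0 at an unadjusted p under 0.05 (3.61% and 8.04%). Limma-trend called 0 and 0 (5.46% and 7.58%), with 18 and 0 at an unadjusted p under 0.05 (20.9% and 11.9%). The median log2 fold change over the 70 members whose mean reached 50 normalized reads was -0.19, beside -0.21 over the 7939 entries of that level. Of these 70, 64 lay below 0, where 72.3% of all entries did. Both RingKO libraries were below both WT libraries for 35 of the 70 (51.9% of all entries) and above them for 1, Cox8a (14.5% of all entries). TMM scaling raised all fold changes by 0.18 on the log2 scale in the median: on that scale the members' median was -0.014 against -0.0067 over all entries tested, and 40 of 73 members lay below 0. The general drop in the deposited values is thus absent under TMM scaling, for these genes as for all entries.

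The members' summed reads per 1000000 reads of the library (rpm) were 25173 and 23148 for WT and 22821 and 21376 for RingKO. The RingKO libraries lay below the WT libraries by a margin smaller than the gap between the WT libraries. The means were 24160 ± 1432 (SD, n = 2) and 22099 ± 1022 (SD, n = 2), a ratio of 0.915. The two-sided exact permutation test over the 4 libraries gave p = 0.333, the smallest it can give.

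Succinate dehydrogenase, complex II, had the lowest median of the complexes. Sdha, the flavoprotein that oxidises succinate, had 3623 and 3861 normalized reads in the WT libraries and 2633 and 1827 in RingKO. Both RingKO libraries lay below both WT libraries. Sdha fell: its log2 fold change was -0.75 by the authors' deposited table (DESeq adjusted p = 0.0163). The edgeR estimate was -0.57 ± 0.18 (adjusted p = 0.083), and over its alternatives the adjusted p ran from 9.8e-05 to 0.475. It was 0.042 with edgeR on the deposited size factors, 0.0237 with DESeq2, 0.0525 with limma-trend, and 0.351 and 0.475 with edgeR without WT library A or B. A lone library is assumed to vary like the other group in these fits. Without RingKO library A it was 9.8e-05 and without RingKO library B 0.0328 (log2 fold change -0.36).

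Sdhb, the iron-sulfur subunit, had 1598 and 1459 normalized reads in WT and 1253 and 1170 in RingKO. Sdhc, a membrane anchor, had 885 and 889 against 743 and 629, and Sdhd, the other anchor, 1358 and 1278 against 1043 and 755. In all 4 genes both RingKO libraries lay below both WT libraries, as they did for 51.9% of all entries with a mean of at least 50. Sdhb, Sdhc and Sdhd did not pass the test (DESeq adjusted p = 0.554, 0.512 and 0.122 in the authors' deposited table). The median deposited log2 fold change over the 4 genes was -0.46, and with edgeR's TMM scaling it was -0.28 with 4 of 4 below 0. Summed over the complex, normalized reads in RingKO were 0.672 times those in WT, beside 0.832 for all members.

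**Figure D1:**
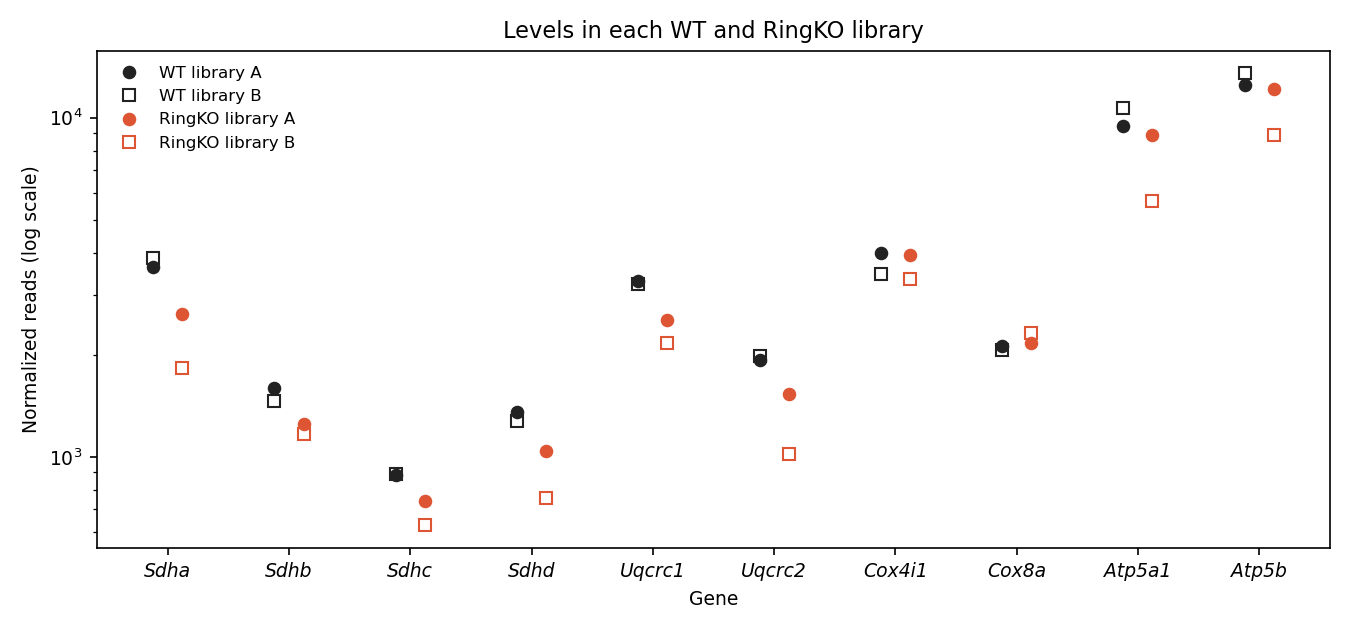
Normalized reads of 10 genes (x axis) on a log scale (y axis) in each WT library (black) and RingKO library (orange), filled circles for library A and open squares for library B. The 4 Sdh genes, Uqcrc1, Uqcrc2, Atp5a1 and Atp5b have both RingKO points below both WT points, with RingKO library B lower than A in each of these 8, Cox4i1 overlaps, and Cox8a has both RingKO points above.

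Complex I, the entry point for NADH, showed no call in either direction among its 37 names. The 32 with a mean of at least 50 had a median of -0.21, equal to that of all entries. Ndufa13 (also known as GRIM-19), an accessory subunit, was the highest, with 1232 and 1019 against 1202 and 1321, so that the groups overlapped, and an edgeR estimate of 0.35 ± 0.16 (adjusted p = 0.223).

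Among the core subunits that carry the electrons to ubiquinone, Ndufv1, the NADH-binding subunit, had 2141 and 2007 normalized reads in WT and 1587 and 1420 in RingKO. It did not overlap between the genotypes (DESeq adjusted p = 0.208 in the authors' deposited table). Ndufs7 overlapped, at 1443 and 1327 against 1290 and 1400. Ndufa4 was counted with complex I by its name but is also found with complex IV. Its reads are part of the complex I share given below. Per kilobase of transcript Ndufa4 was the most abundant name counted with complex I over the 4 libraries (2003 normalized reads per kilobase). Ndufs7 stood at 1801. Ndufa4 had 1463 and 1294 normalized reads in WT against 1121 and 1009 in RingKO, again without overlap and without a call (DESeq adjusted p = 0.455 in the authors' deposited table).

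No gene of complex III passed the test, and its 2 core proteins had the lowest values. Uqcrc2, a core protein, had 1935 and 1978 normalized reads in WT and 1537 and 1022 in RingKO. Uqcrc1, its partner, had 3299 and 3229 against 2528 and 2174. Neither pair of groups overlapped, and the log2 fold changes by the authors' deposited table were -0.61 and -0.47 (DESeq adjusted p = 0.174 and 0.171). The 5 small subunits had a median of -0.12, and 1 of them, Uqcrb, did not overlap between genotypes. Both RingKO libraries lay below both WT libraries for 51.9% of all entries with a mean of at least 50. Uqcr11, the most abundant gene of the complex per kilobase (3988), had 2052 and 1545 normalized reads in WT and 1620 and 1881 in RingKO, an overlap. Uqcrh and Uqcr10 came next, at 2925 and 2500 per kilobase, with 1847 and 1568 against 1574 and 1410 normalized reads for Uqcrh and 1316 and 941 against 1061 and 1021 for Uqcr10. The Rieske iron-sulfur protein Uqcrfs1 had 1273 and 1285 against 1076 and 1002, without overlap (DESeq adjusted p = 0.673 in the authors' deposited table).

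Cytochrome c oxidase, complex IV, lay highest of the complexes, with a median of -0.08 over the 11 genes with a mean of at least 50. Over the 12 genes that edgeR tested, the median was -0.08 in the deposited values and 0.10 with TMM scaling. Cox4i1, the most abundant gene of the complex per kilobase (4946), had 4003 and 3454 normalized reads in WT and 3926 and 3354 in RingKO, an overlap. Cox6a1 (4439 per kilobase) had 2718 and 2603 against 2497 and 2321, below WT in both libraries, with an edgeR estimate of 0.04 ± 0.14. Cox8a (3945 per kilobase) had 2128 and 2063 against 2164 and 2323, the only member with a mean of at least 50 above WT in both libraries, at 0.28 ± 0.15 (edgeR adjusted p = 0.267). Cox7a2 was the lowest common subunit, with 729 and 648 against 539 and 378, without overlap (DESeq adjusted p = 0.197 in the authors' deposited table).

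Several subunits of complex IV exist as a common form and a form restricted to tissues such as heart and muscle, lung or testis. Per kilobase the common form was the higher one in all 6 libraries wherever both had an entry there. Cox7a1, the heart and muscle form, had 76.1 and 55.7 normalized reads in WT and 56.8 and 109 in RingKO, an overlap, and over these libraries its mean per kilobase was 189 against 870 for its common partner Cox7a2. Cox6b2, the testis form, had 12.1 and 11.3 in WT and 28.4 and 12.9 in RingKO, above WT in both libraries at an edgeR estimate of 0.99 ± 0.45 (adjusted p = 0.214). Cox6b1, the common form, had 1727 and 1478 against 1550 and 1476, and a mean of 2521 per kilobase against 29.3 for Cox6b2. Cox4i2, Cox6a2 and Cox8b had at most 4 reads in any of the 4 libraries and are not in the table of the Bcat pair. Cox7b2, Cox8c and Ndufa4l2 match the name rule but had no entry under these names for any genotype.

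Complex V held the most abundant member of all, Atp5b, the catalytic beta subunit (6144 normalized reads per kilobase). It had 12519 and 13515 normalized reads in WT and 12143 and 8907 in RingKO, without overlap, at an edgeR estimate of -0.13 ± 0.19. Atp5a1, the alpha subunit, had 9481 and 10685 against 8897 and 5689, at -0.29 ± 0.21, also without overlap. In both genes RingKO library B lay well below library A. Neither passed the test (DESeq adjusted p = 0.747 and 0.657 in the authors' deposited table).

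The 3 Atp5g genes encode the same mature c subunit, which forms the rotating ring. Atp5g3 was the largest source, with 2987 and 2984 normalized reads in WT and 2582 and 2180 in RingKO. Atp5g2 had 1278 and 1310 against 1361 and 964, and Atp5g1 had 386 and 350 against 270.0 and 280.0. Atp5g1 and Atp5g3 did not overlap between the genotypes and Atp5g2 did, and none passed the test (DESeq adjusted p from 0.53 to 1 in the authors' deposited table). Of all entries with a mean of at least 50, 51.9% had both RingKO libraries below both WT libraries. Per kilobase the order of the 3 Atp5g genes was the same in each of the 4 libraries. Atp5e, the epsilon subunit of the head (3700 per kilobase), had 1859 and 1271 against 1488 and 1613 and overlapped. Atp5k, of the membrane part, whose promoter is printed above, had 678 and 427 against 463 and 600.2 and overlapped as well. Atp5s, a coupling factor, had the lowest edgeR estimate among the Atp5 names (-0.48 ± 0.28, adjusted p = 0.327), with 46.7 and 45.8 against 29.8 and 28.7, and Atp5sl the highest (0.18 ± 0.16, adjusted p = 0.525), with 437 and 414 against 387 and 458.

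The libraries of RingKO differed from each other more than those of WT. Among the 70 members the log2 ratio of library B to library A had an SD of 0.28 in RingKO and 0.17 in WT, beside 0.446 and 0.245 over all entries. Without RingKO library A, edgeR at an adjusted p under 0.05 called 12 members lower (11.0% of all entries) and 3 higher (15.9% of all entries). The 12 included Sdha, Sdhd, Ndufa9, Ndufb9, Uqcrc1, Uqcrc2, Cox5a, Cox7a2, Atp5a1, Atp5b and Atp5f1, and the 3 were Cox8a, Cox7a1 and Ndufa13. Without RingKO library B only Sdha was called (4.90% of all entries lower, 11.0% higher), and without WT library A or without WT library B 0 members were called (0.800% and 0.764% of all entries lower, 4.40% and 4.78% higher). RingKO library B also had the higher level of Paneth cell markers, at 13062 rpm against 9664 in library A, 4142 and 2761 in WT, and the lower level of stem cell markers, at 2016 against 4492, 5602 and 6418. The other marker lists summed, in WT and RingKO, to 10600 to 12510 and 10746 to 17219 rpm (goblet), 1506 to 1740 and 665 to 758 (enteroendocrine), 162 to 165 and 42.9 to 53.6 (tuft), 670 to 721 and 679 to 914 (enterocyte), and 36.1 to 39.1 and 14.0 to 15.1 (blood and stroma). By the authors' deposited test 3 of the 6 enterocyte markers fell and 1 rose. Their median log2 fold change was -1.06, which the sum does not show. Of the other lists 5 enteroendocrine, 4 tuft and 1 blood and stroma marker fell, and 1 goblet marker rose. Over all entries 1.76% fell and 3.14% rose. The part of these markers in the members' values was not tested. In bulk libraries fewer cells of a type and less RNA per cell cannot be told apart.

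Among other genes of mitochondrial metabolism and glycolysis the authors' deposited test gave 10 falls and 2 rises over 6 lists. Over all entries 1.76% fell and 3.14% rose. Of the 10 falls edgeR called 5 (2.95% of all entries tested were called lower). It also called 1 cytochrome c and coupled gene and 2 glycolysis genes higher (9.91% of all entries tested). Of 25 genes of the citric acid cycle and pyruvate dehydrogenase, 4 fell (1.76% of all entries) and 0 rose (3.14% of all entries). The 4 were Idh3a and Idh3g, subunits of isocitrate dehydrogenase, and Pdha1 and Pdhx, subunits of the pyruvate dehydrogenase complex. Idh3a had 1207 and 1315 normalized reads in WT and 806 and 640.4 in RingKO, without overlap (-0.80 in the authors' deposited table, DESeq adjusted p = 0.00332). The list's median was -0.48 over 22 genes with a mean of at least 50, beside -0.21 over all entries. Among 14 genes of cytochrome c and coupled functions, Etfdh fell and Slc25a4 rose. Etfdh, which passes electrons from fatty acid oxidation to ubiquinone, had 689 and 744 against 438 and 330.3 (-0.90 in the authors' deposited table, DESeq adjusted p = 0.00192). Slc25a4, an ADP/ATP carrier of heart and muscle, had 228 and 252 against 739 and 563, with an edgeR estimate of 1.62 ± 0.16 (adjusted p = 0.000627).

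Of 13 complex I assembly genes Acad9 fell, where 1.76% of all entries did. Of 22 assembly genes of the other complexes Lrpprc fell, which stabilises mitochondrial messenger RNA. Of 15 regulators of mitochondrial biogenesis 1 fell: Tfam, which packages and transcribes the mitochondrial genome, had 579 and 557 normalized reads against 360 and 294 (-0.79 in the authors' deposited table, DESeq adjusted p = 0.0131). Esrra (1053 and 1089 against 934 and 1047), Gabpa (271 and 317 against 270.0 and 182), Pprc1 (805 and 825 against 597 and 600.2) and Ppargc1b (233 and 194 against 102 and 247) did not pass the test. Nrf1 had at most 10 reads in any of these libraries in its entry. Ppargc1a had no entry for WT and RingKO, and 0 reads in Bcat and 1 in Bcat_RingKO. Cycs, cytochrome c itself, had 795 and 877 against 622 and 538, and Cyc1, the cytochrome c1 of complex III, which the name rule does not take, had 3399 and 3214 against 2308 and 2318. Neither passed the test (DESeq adjusted p = 0.174 and 0.107 in the authors' deposited table) and neither overlapped.

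Of 19 glycolysis genes Pgk1 and Pgam1 fell (1.76% of all entries) and Ldhb rose (3.14% of all entries). Ldhb, a subunit of lactate dehydrogenase, had 23.6 and 28.2 normalized reads in WT and 198 and 134 in RingKO, with an edgeR estimate of 2.85 ± 0.25 (adjusted p = 0.000361). By edgeR with all 4 libraries 5 of the 10 falls were called (Acad9, Etfdh, Tfam, Idh3a and Pdhx), and Lrpprc, Idh3g, Pdha1, Pgk1 and Pgam1 had an adjusted p from 0.057 to 0.127. In edgeR without WT library A or without WT library B the 10 had an adjusted p between 0.134 and 0.652, at log2 fold changes from -0.78 to -0.40. In these fits the lone WT library is assumed to vary like the RingKO libraries, and 0.800% and 0.764% of all entries are called lower, so the lost calls do not show smaller falls. Slc25a4 and Ldhb were called in edgeR without any single library.

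In the cells with the beta-catenin allele, nearly all respiratory chain genes were lower in the Bcat_RingKO library than in the Bcat library. With 1 library per group there is no test, and intervals (exact conditional binomial, Clopper-Pearson, 95%) cover counting error only. The members took 22898 rpm in Bcat (Clopper-Pearson 95% interval 22593 to 23205) and 10122 in Bcat_RingKO (10029 to 10215), a ratio of 0.442. Of the 78 members in this table, 53 had a deposited log2 ratio of -1 or lower, against 20.8% of all entries, and 2 had 1 or higher, against 21.8%. Among the 68 members with at least 20 reads in each library, 50 were past that fold to the lower side (9.13% of 6831 entries) and 1 to the higher side (15.3%), and 67 lay below 0 (44.1%). The median over the 68 was -1.31, beside 0.12 over the entries of that depth. TMM scaling lowers every ratio of this pair by 0.22 and gives 58 lower and 0 higher of the 68, and scaling to rpm raises every ratio by 0.04 and gives 47 and 1. This pair shares no library with the WT and RingKO comparison, and the authors scaled the tables separately.

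**Figure D2:**
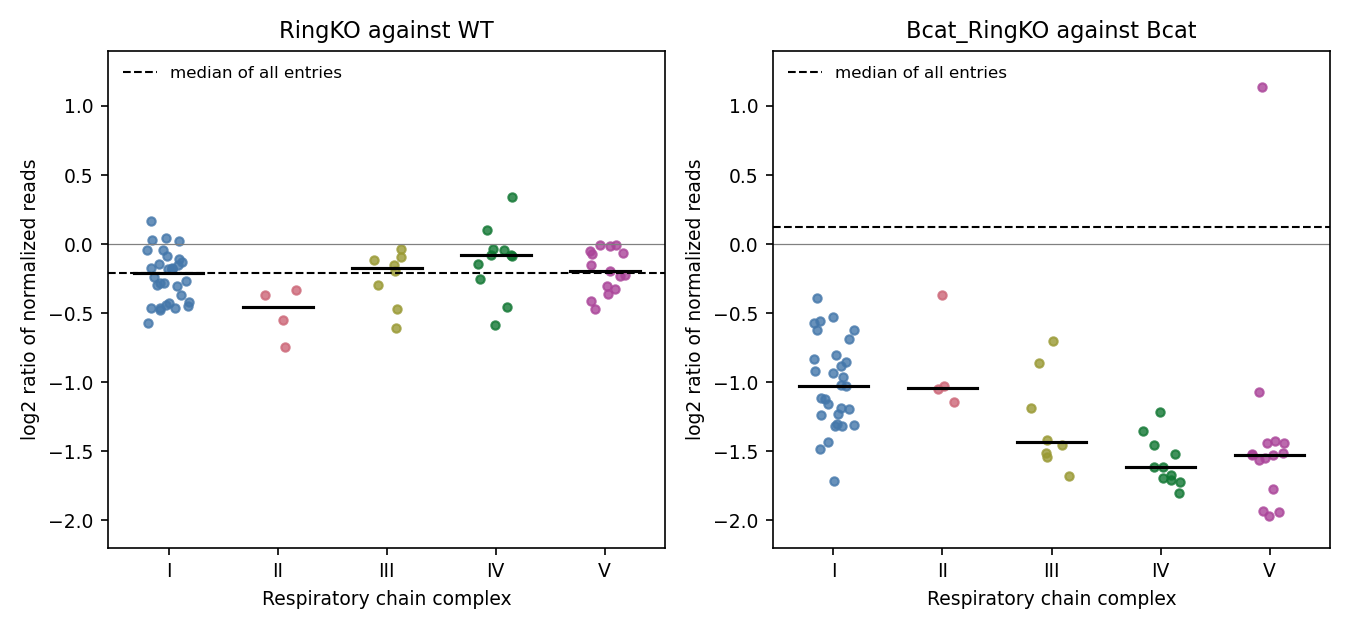
Log2 ratio of normalized reads (y axis) for each member of complexes I to V (x axis), RingKO against WT at left (members with a mean of at least 50) and Bcat_RingKO against Bcat at right (members with at least 20 reads in each library). Points are genes, short bars the medians of the complexes and the dashed line the median of all entries at the same level: at left the complexes lie around that line, and at right all points but Atp5sl lie below 0.

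Complex IV had the lowest median of the complexes, -1.62, with 11 of 11 subunits past the fold. Past it to the lower side were 9.13% of all entries with at least 20 reads in each library. Of such entries under 1000 nt, the length of most of these subunits, 41.7% were. Cox6c was lowest at -1.80, with 320 reads in Bcat and 459 in the much deeper Bcat_RingKO library, a normalized ratio of 0.287 (0.248 to 0.332). Cox4i1 had 561 and 917 reads (ratio 0.327, interval 0.294 to 0.364), Cox6a1 310 and 606 (0.391, 0.340 to 0.450) and Cox8a 325 and 568 (0.350, 0.304 to 0.402). Cox5b was the nearest to 0, at -1.21, and the others past the fold were Cox5a, Cox6b1, Cox7a2, Cox7b, Cox7c and the heart and muscle form Cox7a1. Cox6b2 had 2 and 8 reads and was too low to read.

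Complex V followed with a median of -1.53 over 15 names, 14 of them past the fold to the lower side (9.13% of all entries). Atp5e had the lowest ratio of all members with at least 20 reads in each library, with 352 and 449 reads, a ratio of 0.255 (0.221 to 0.294). Atp5l and Atp5g1 were close to it, at log2 ratios of -1.94 and -1.93, and their intervals overlapped that of Atp5e. Atp5b had 1425 and 2621 reads (ratio 0.368, 0.345 to 0.393) and Atp5a1 1631 and 2863 (0.351, 0.330 to 0.373). Atp5g2 and Atp5g3 stood at 0.339 and 0.293, so that all 3 genes of the c subunit were past the fold. Atp5d, the delta subunit of the head, was the subunit with the ratio nearest to 1, at 0.476 (0.423 to 0.536). The others past the fold were Atp5f1, Atp5h, Atp5j, Atp5j2, Atp5k and Atp5o, all parts of the stalk or the membrane sector. Atp5sl, which is not a subunit, went the other way, with 44 and 493 reads and a ratio of 2.24 (1.64 to 3.12).

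Complex III had a median of -1.44 and its members differed by role. The 5 small subunits lay between 0.312 (Uqcrh, 408 and 637 reads) and 0.375 (Uqcr11, 240 and 450 reads), and Uqcrfs1, the Rieske protein, at 0.440 (0.391 to 0.496). Uqcrc1 and Uqcrc2, the core proteins, were at 0.616 (0.554 to 0.686) and 0.550 (0.497 to 0.608), short of the fold, with intervals above those of all 5 small subunits.

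Complex I had a median of -1.02 over 30 genes, and 16 of them were past the fold (9.13% of all entries). Core subunits were short of it, with Ndufv1 at 0.765 (0.670 to 0.877), Ndufs7 at 0.695 (0.588 to 0.825) and Ndufs3 at 0.681 (0.579 to 0.804). The accessory subunits had a median of -1.12. Ndufa4, counted here by its name and also found with complex IV, was the lowest of these 30. It had 328 and 499 reads and a ratio of 0.304 (0.264 to 0.351). Its log2 ratio of -1.72 lay nearer the median of complex IV (-1.62) than that of complex I. The others with at least 20 reads and past the fold were Ndufa1, Ndufa2, Ndufa5, Ndufa6, Ndufa12, Ndufab1, Ndufb2, Ndufb4, Ndufb5, Ndufb6, Ndufb8, Ndufb9, Ndufb11, Ndufc1 and Ndufc2. Ndufa7, Ndufs5 and Ndufs6 also passed the fold at 17 reads or fewer in Bcat, and the intervals of Ndufs5 and Ndufs6 held 1. Ndufv3 had 15 and 166 reads, a ratio of 2.21 (1.30 to 4.04).

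Complex II had a median of -1.04. Sdhb had 337 and 826 reads (ratio 0.490, 0.431 to 0.558), Sdhc 346 and 785 (0.454, 0.399 to 0.516) and Sdhd 442 and 1067 (0.483, 0.432 to 0.541). These 3 were past the fold (9.13% of all entries). Sdha, the member that fell in RingKO and whose promoter is printed above, had 525 and 2039 reads and a ratio of 0.777 (0.705 to 0.857). Only Ndufv3, Atp5s and Atp5sl were higher among the members with at least 10 reads in Bcat.

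Transcript length moved with the ratios of the Bcat pair. Over all entries with at least 20 reads in each library, the median log2 ratio was -0.84 for transcripts under 1000 nt, -0.18 from 1000 to 2000 nt, 0.18 from 2000 to 4000 nt and 0.46 from 4000 nt. The members are short, with a median of 738.5 nt against 2688 nt over all entries. The members' medians were -1.44 under 1000 nt (46 members), -0.96 from 1000 to 2000 nt (16) and -0.87 from 2000 to 4000 nt (6). Under 1000 nt, 39 of the 46 members were past the fold to the lower side, where 41.7% of all entries of that length were. In RingKO against WT the medians ran the other way and over a narrower span, from -0.04 under 1000 nt to -0.28 from 4000 nt over all entries, and the members had -0.15, -0.31 and -0.40 in the same 3 ranges. Atp5a1 (2471 nt) and Atp5b (1916 nt) were at -1.51 and -1.44 in the Bcat pair. The part of length in the differences between complexes and roles was not tested, and the core subunits are longer than the small ones.

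**Figure D3:**
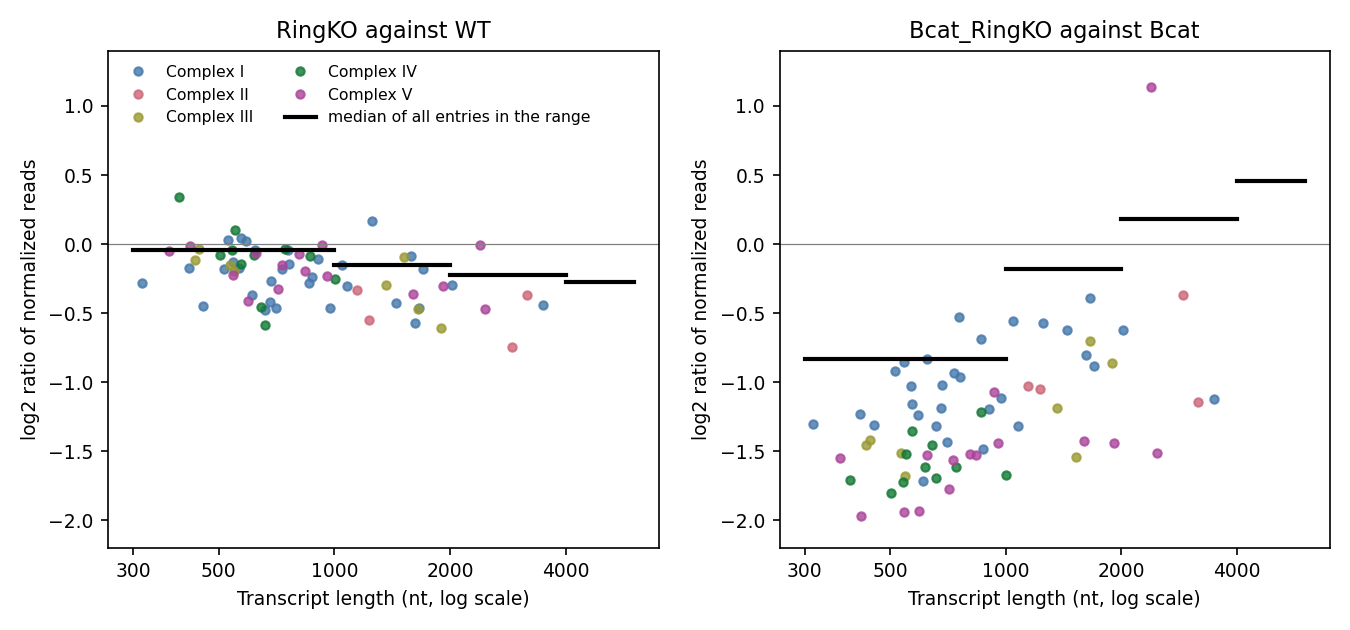
Log2 ratio of normalized reads (y axis) against transcript length in nt on a log scale (x axis) for the members, coloured by complex, RingKO against WT at left and Bcat_RingKO against Bcat at right. Black bars give the median of all entries in each length range: at right it climbs from -0.84 to 0.46 and most members lie below it, and at left it runs from -0.04 to -0.28.

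Other groups were set beside the members in the same pair, and 2 of them were chosen after their values were seen. The 76 cytosolic ribosomal protein genes, with a median length of 795 nt, had a median log2 ratio of -1.96 with 72 past the fold to the lower side. The 76 mitochondrial ribosomal protein genes, with a median of 1224.5 nt, had -0.43 with 8 past it. Of the lists of mitochondrial metabolism, cytochrome c and coupled genes had a median of -0.71, citric acid cycle and pyruvate dehydrogenase genes -0.54, glycolysis genes -0.53, assembly genes of complexes II to V -0.25, complex I assembly genes 0.07 and biogenesis regulators 0.04. Cycs, cytochrome c, had 444 and 907 reads (ratio 0.409, 0.364 to 0.459), and Tfam 260 and 572 (0.440, 0.379 to 0.511). Pprc1, a coactivator of the PGC-1 family, had 67 and 969 reads, a ratio of 2.89 (2.26 to 3.76), and Ppargc1b, of the same family, 21 and 290 reads, 2.76 (1.77 to 4.53).

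Markers of several differentiated cell types, though not the goblet cell markers, also summed to less in the Bcat_RingKO library. The 6 enterocyte markers summed to 3026 rpm in Bcat and 1021 in Bcat_RingKO, the 7 Paneth cell markers to 4561 and 1292, the 6 enteroendocrine markers in this table to 2098 and 348, and the 5 stem cell markers to 3202 and 1772. Among the stem cell markers Olfm4 had a ratio of 0.242 and Lgr5 one of 2.06, and the list's median log2 ratio was 0.098. The goblet cell markers summed to 2968 and 3090, the tuft cell markers to 281 and 192, and the blood and stroma markers to 73.7 and 138. No marker in this table was at 0 reads in either library. The part of these markers, and of the different depths of both libraries, in the members' lower ratios was not tested.

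The makeup of the chain was compared over the 4 genotypes by the share of each complex in the members' reads per kilobase, which does not depend on the scaling between libraries or tables. Complex II took 3.41% and 3.70% in WT and 3.02% and 2.64% in RingKO, a lower share in both, and 3.91% in Bcat against 5.27% in Bcat_RingKO, a higher one. Complex IV took 23.6% and 23.6% in WT and 25.0% and 25.6% in RingKO, a higher share in both, and 21.0% in Bcat against 17.7% in Bcat_RingKO. Complex I took 27.0% and 26.3% in WT, 25.6% and 26.2% in RingKO, and 30.7% in Bcat against 37.2% in Bcat_RingKO. Complex III (14.5% and 13.4% in WT, 13.6% and 14.5% in RingKO) and complex V (31.6% and 32.9%, 32.8% and 31.1%) overlapped between WT and RingKO. In the Bcat pair complex III took 13.9% and 13.7%, and complex V 30.6% and 26.1%. The shares sum to 100%, so they cannot move independently. Dividing by length does not remove a change of the ratios with length, and the part of length in the shares was not tested.

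**Figure D4:**
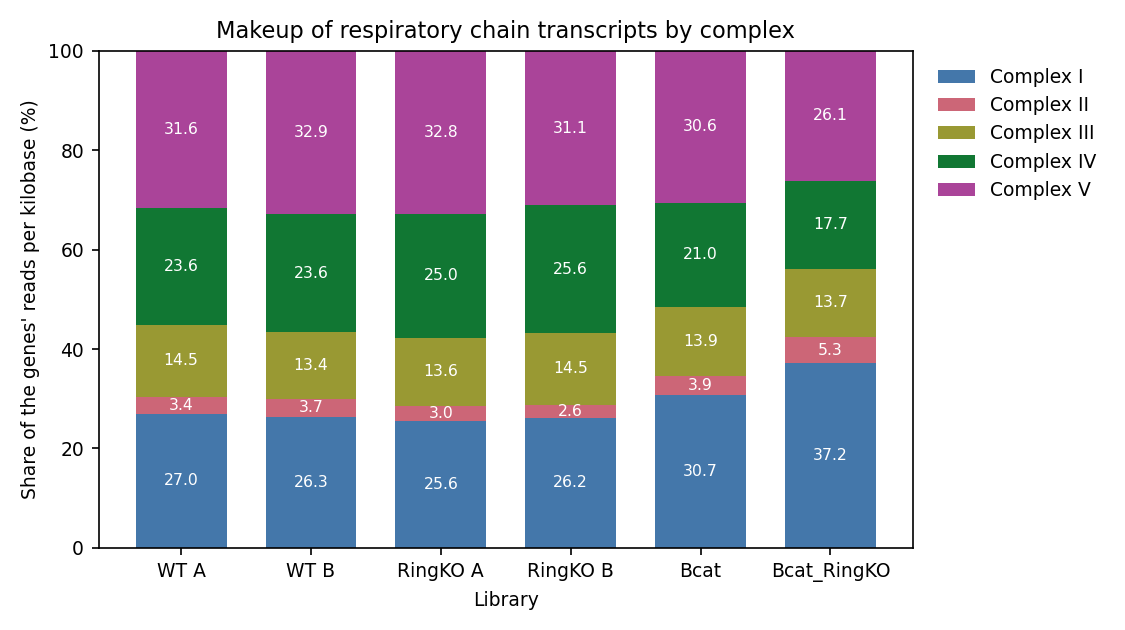
Share of each complex in the members' reads per kilobase of transcript (y axis, %) in the 6 libraries (x axis), with the value printed in each segment. Complex IV is at 23.6% in WT and at 25.0% and 25.6% in RingKO but at 21.0% in Bcat and 17.7% in Bcat_RingKO, and complex I is at 30.7% and 37.2% in the latter pair.

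For 11 of the 82 names the entry held a mean under 30 normalized reads: Ndufs1, Ndufs5, Ndufs6, Ndufs8, Ndufv2, Atp5c1, Cox7a2l, Cox4i2, Cox6a2, Cox6b2 and Cox8b. Ndufs1, Ndufs8, Ndufv2 and Atp5c1 encode core parts of complexes I and V, which do not work without them, so these entries are not read as the level of the gene. In RefSeq 7 of the 11 genes have at least 2 transcripts, against 24 of the other 71, while the tables hold 1 entry for most. How reads were divided between entries, or between these genes and their many processed pseudogene copies, is not given in the sources used here, and levels of single members are uncertain to that extent.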

How the data were processed

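RNA of the sorted cells was made into libraries with the TruSeq RNA v2 kit (labels' protocols). TopHat, DESeq and build mm9 are named in the submitters' processing notes. The counter, the annotation and whether strand was used: not given in the sources used here. The authors deposited, per the file headers and values, normalized coverage (signal) for each RefSeq entry, which is (reads + 1) over the library's size factor: group means over 2 libraries for WT and RingKO and single values for the Bcat pair. They also deposited a fold ratio, its log2 value and, for WT and RingKO, p-values and adjusted p-values. The tables were scaled separately.

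Reads of the single libraries were recovered from the deposited means as whole-number solutions. For RingKO all 18376 means had 1 solution, for WT 18362, and the 14 others include no member. In the Bcat pair all 17076 values were whole within 0.001. On means simulated with the fitted size factors 100% were recovered. The simulation used the same size factors for the solution, so it does not check the size factors themselves. The call is the authors' deposited adjusted p under 0.05. Fold changes with SE come from edgeR 4.0.16 (quasi-likelihood test, TMM, filterByExpr, Benjamini-Hochberg over all entries tested, R 4.3.3) on recovered reads, tested on simulated data; DESeq2 1.42.0 and limma 3.58.1 (limma-trend on log2 of normalized reads plus 1) were alternatives. Normalized reads per library are recovered reads over the size factor. Lengths and promoters come from GENCODE and RefSeq (GRCm38.p6), matched by accession for 98.7% of entries (97.8% with a length). Depth is given as reads per library.

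Members and lists were chosen with earlier results of these data known. Named with all values were called members, the 3 most abundant per kilobase and the extremes of each complex, the Sdh and Atp5g genes and isoform pairs; in the Bcat pair members past 1 on the log2 scale were named; other genes came from the pathway lists and the marker lists. The values of Uqcrc1, Uqcrfs1, Ndufv1, Atp5a1, Atp5d, Cox5b and Cox6c were singled out beyond that rule, after they were seen. Values of 1 member are not reported here.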

Additional observations from a re-analysis of the deposited data

Results flagged for a closer look

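Cox8a, a small subunit of complex IV, lay above both WT libraries in both RingKO libraries (2128 and 2063 against 2164 and 2323 normalized reads), while its ratio in Bcat_RingKO against Bcat was 0.3495 (0.304 to 0.402, counting error only). The share of complex II in the members' reads per kilobase was lower in both RingKO libraries than in both WT libraries and 1.361 percentage points higher in Bcat_RingKO than in Bcat. The share of complex I, too, was lower in both RingKO libraries and was 6.49 percentage points higher in Bcat_RingKO. The lower share in RingKO rests on dividing by length: by reads, RingKO library B stood at 25.42% against 25.41% and 24.06% in WT. That of complex IV was higher in both RingKO libraries and differed by -3.248 percentage points in the Bcat pair. These opposite directions were not tested, since the Bcat pair has 1 library per group, and the 3 shares are parts of 1 total. Over all entries the medians by transcript length also ran in opposite directions in the 2 comparisons, as given above. The median length was 2065.5 nt for complex II, 758 nt for complex I and 631.5 nt for complex IV. The part of length in these shares was not tested.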

How the results depend on the processing

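The count of members that fell, 1 in the authors' deposited test, was 0 with edgeR (TMM), 0 with edgeR without a filter on low counts and 0 with limma-trend, and it ranged from 0 to 12 in edgeR without 1 library, the 12 coming without RingKO library A. The count that rose, 0, ranged from 0 to 3 in the same fits. The median log2 fold change of the members, -0.19, was -0.014 with edgeR and -0.031 with DESeq2, and -0.13 to 0.072 without 1 library. For Sdha the edgeR value of -0.57 passed the threshold at -0.75 with the deposited size factors and at -0.59 with DESeq2, and without 1 library it ranged from -0.81 to -0.36. The difference of RingKO minus WT in the share of complex I was -0.77 percentage points per kilobase and -0.071 with reads not divided by length, and that of complex II -0.72 and -1.38. The median of the Bcat pair, -1.24 over 78 members, was -1.45 with TMM, -1.19 with rpm scaling, -1.31 over members with at least 20 reads in each library and -1.27 without the 3 names that are no subunits. Leaving out 1 library was added for the shares of the complexes after seeing the data; the shares of complexes I, II and IV kept their direction, and those of III and V, which overlap between genotypes, did not. No paired analysis was possible because nothing ties the recovered libraries A and B to the numbers 1 and 2 in the sample titles. The Bcat library has the fewest reads, and members with few reads there have wide intervals.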
